A study of Zea mays with 12 samples.

Results

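Father-like transcripts are those for which the 2 reciprocal hybrids differed in the direction of their fathers, against the usual order in endosperm. They were found among maize endosperm probe sets by a share, the difference B73xMo17 minus Mo17xB73 divided by the difference B73 minus Mo17, taken on geometric means of scaled signal. A share of -0.3 or less made a probe set a member. To be eligible at all, a probe set needed a larger inbred mean of 200 or more, an inbred ratio of 1.5 or more, and 3 arrays of one inbred all above those of the other. Of 17621 probe sets, 2627 were eligible and 51 (1.94% of the eligible) were members. Because these values chose the members, the differences between the inbreds, between the hybrids and between a hybrid and its parents are given below as descriptions only.

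The nutritive tissue of the kernel was taken 13 days after pollination from field-grown maize of 4 genotypes, the inbred lines B73 and Mo17 and their crosses B73xMo17 and Mo17xB73. Each genotype had 3 arrays, 12 in all, and each array carried RNA pooled over 6 ears; the number of endosperms per ear is given as 5 in one place and as 6 in another. The 3 replicate numbers stand for 3 crossing dates, and on each date all genotypes were crossed within 30 minutes. All groups were collected at the same age, and no mutant allele or treatment is named for any of them. The first parent written is taken as the mother, by maize convention, which the labels do not state. If the father were written first, the same transcripts would be mother-like.

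Endosperm is the second product of double fertilization in flowering plants and is triploid, with 2 genome copies from the mother and 1 from the father. For a gene whose copies are all equally active, the reciprocal hybrids therefore differ in the direction of the mother, the higher hybrid being the one whose mother has the more active allele. Imprinted genes depart from this, since either the maternal or the paternal copies are silenced, and paternally expressed genes are the ones for which the hybrids follow the father. Total transcript level, which these arrays measure, does not show which allele was transcribed.

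Members sat in the low tail of a single broad distribution of shares. The eligible probe sets had a median share of 0.39, with 0.23 and 0.60 at the 25th and 75th percentiles and -0.07 at the 5th. A share below 0 was found for 202 of them (7.69%). Members ran from -3.76 to -0.30 with a median of -0.43: 3 were at -1 or less, 7 lay between -1 and -0.7, 10 between -0.7 and -0.5, and 31 above -0.5. Nothing separated the last members from the first probe sets left out. Just inside the threshold were Zm.6406.1.A1_at (-0.310), Zm.4758.1.A1_at (-0.306) and Zm.6173.1.A1_at (-0.302), and just outside were Zm.17021.1.S1_at (-0.298), Zm.12915.1.S1_at (-0.290) and Zm.4553.1.S1_at (-0.286).

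**Figure D1:**
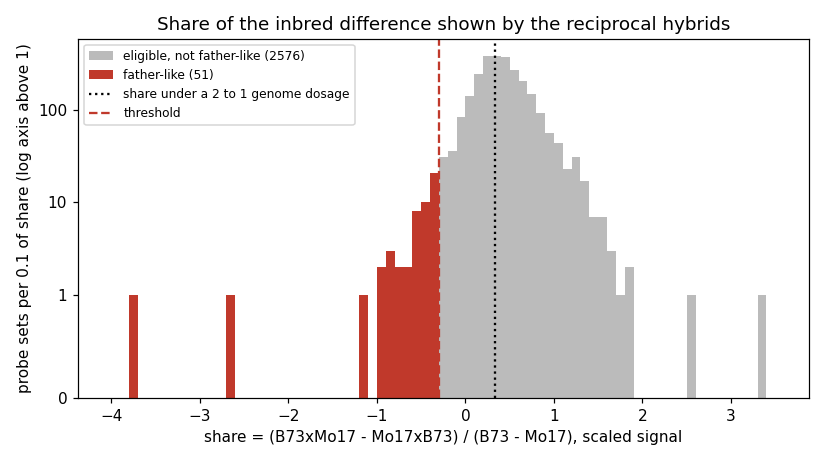
Number of eligible probe sets (log axis above 1) per 0.1 of the share, with the 51 father-like members in red and the other 2576 in grey. The members form the left tail, cut at -0.3, and 3 of them lie at -1 or less, while most eligible probe sets lie near the dotted line of a 2 to 1 genome dosage.

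The name father-like held for both hybrids in most members but not in all. On the log scale both hybrids lay nearer the father than the mother for 38 members, and for the other 13 this was true of 1 hybrid only. B73xMo17 was nearer its father Mo17 for 47 members, and Mo17xB73 was nearer its father B73 for 42. Both hybrids were within 1.25-fold of the father for 24 members. Among all eligible probe sets, 1614 had both hybrids nearer the mother. The members were balanced over the parents, 25 being higher in B73 and 26 in Mo17, where the eligible probe sets counted 1277 and 1350.

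Most members were father-like by small differences at modest levels. The larger inbred mean ran from 200.5 to 7172 units with a median of 419, against 676 for all eligible probe sets. The inbreds differed by a median of 1.87-fold (2.09-fold over all eligible) and the reciprocal hybrids by a median of 1.31-fold. The hybrid difference reached 2-fold in 5 members and stayed under 1.5-fold in 37. The 3 arrays of one hybrid lay entirely above those of the other in 32 members and overlapped in 19. Non-overlapping hybrid arrays were found for 43.8% of all 10544 probe sets tested and for 68.3% of the eligible ones tested. The rule used this contrast, so nothing is read from the count.

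Arrays of B73xMo17 stood apart in brightness. The deposited medians ran from 127 to 178, and replicates 1 and 2 of B73xMo17 were the dimmest, with medians of 133 and 127 and hybridization spike-ins 0.36 and 0.37 below the mean on the log2 scale; its replicate 3 was 0.30 above. Each array was therefore multiplied by 0.900 to 1.26 to reach a common median of 160. Membership depends on this step. On the values as deposited the rule found 67 probe sets, of which 21 were among the 51, and 55 of the 67 were higher in B73. With both dim arrays left out it found 83, of which 38 were among the 51, and 58 of the 83 were higher in Mo17. Of the 51 themselves, 47 kept a share below 0 without the dim arrays and 46 did so on the deposited values. Zein storage proteins, the defining products of starchy endosperm, summed to 22112 or more units over 11 probe sets on every array, so the tissue label had its defining transcripts. Lists for embryo and for green or maternal tissue were not at 0. The embryo list summed to between 3107 and 4954 units, with overlapping ranges in the 4 genotypes; the oil body gene ole1 averaged 2314 to 3072 and the regulator lec1 1.84 or less. The green and maternal list summed to between 24358 and 42558 units, lower in Mo17 and Mo17xB73 (up to 30492) than in B73 and B73xMo17 (from 37958). Most of that sum was ppdk1, which averaged 8365 to 13580 on its 3 brightest probe sets; me3 averaged 192 to 277, rbcs1 28.8 to 40.7 and psbs1 2.31 or less. The part of embryo or green tissue RNA in the values below was not tested.

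The crossing dates gave a reading of the share on arrays that had not chosen the members. The rule was applied to 2 dates, and the hybrid difference and the share were read on the date left out. That hybrid difference again ran against the inbred difference, the latter taken from the 2 choosing dates, for most probe sets. It did so for 42 of 64 on date 1 (65.6%), 53 of 65 on date 2 (81.5%) and 46 of 58 on date 3 (79.3%). Among all eligible probe sets of the same choice this was so for 10.9%, 10.2% and 10.1%. The median share on the date left out was -0.18, -0.42 and -0.48 in turn, against 0.36, 0.45 and 0.42 for the eligible. On the deposited values the counts were 55 of 64, 53 of 68 and 60 of 120, against 494 of 2898, 402 of 3144 and 316 of 2807 eligible, and the median shares were -0.39, -0.45 and 0.0021. The last of each was for a choice from dates 1 and 2, which contain the dim arrays. On date 3 the median was -0.48 on the scaled values and about 0 on the deposited ones. The part of the dim arrays in this difference was not tested. Of the 51, 42 had a share below 0 on all 3 dates, 8 on 2 dates and 1 on 1 date, and 19 were at -0.3 or less on all 3. These dates were part of the choice and describe it only.

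The most extreme member by share, Zm.15394.1.S1_at, had signal near the background of the array in Mo17. It read 587, 672 and 171 in B73 on dates 1 to 3, and 4.76, 4.46 and 4.33 in Mo17, below 14.9 units, the 20th percentile of all signal, which is used as a floor. Mo17xB73, with B73 as father, read 1248, 1620.1 and 2145, and B73xMo17 read 191, 36.7 and 226. The groups kept the order Mo17xB73, B73, B73xMo17 and Mo17 by their means, but B73 and B73xMo17 overlapped. B73 was at least 27.3-fold above Mo17, and Mo17xB73 was 4.0-fold above its father, so this hybrid lay outside the parental range. The share was -3.76, and per date it was -1.82, -2.37 and -11.5.

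Zm.12.1.S1_at was the mirror case, with Mo17 the higher inbred and the hybrid fathered by Mo17 the highest of all. B73 read 306, 221 and 131, and Mo17 read 2952, 2664 and 4665. B73xMo17 read 14232, 11176 and 8663, against 2965, 1842 and 3911 in Mo17xB73. Every B73xMo17 array was above every other array. The arrays of Mo17xB73 overlapped those of its mother Mo17, with a mean of 0.835 of the mother's level, so this hybrid was nearer its mother. B73xMo17 stood 3.35-fold above its father, Mo17xB73 stood 13.4-fold above its father B73, and the share was -2.68, with -4.26, -3.82 and -1.05 on the 3 dates.

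In Zm.18422.1.S1_at each hybrid was close to the level of its father. B73 read 899, 879.7 and 942, and Mo17xB73 read 921, 963 and 896, a ratio of 1.02 of means. Mo17 read 341, 318 and 333, and B73xMo17 read 279, 272 and 313, a ratio of 0.87. The arrays fell into a high pair of genotypes sharing B73 as father and a low pair sharing Mo17 as father, with no overlap between the pairs. The within-genotype SD was 0.05 to 0.11 on the log2 scale, against a median of 0.21 over members, and the share held between -1.23 and -0.96 over the dates. In log2 units the inbred difference was 1.46 ± 0.09 (SE) and the hybrid difference, which ran the opposite way, -1.69 ± 0.09, with n = 3 arrays per genotype. Without the dim arrays its share was -1.06, and on deposited values it was -1.36.

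Zm.1502.1.A1_at followed the father with wider scatter. B73 read 968, 1112 and 829 and Mo17xB73 read 972, 960.2 and 1089, while Mo17 read 335, 445 and 372 and B73xMo17 read 504, 528 and 335. The pairs again did not overlap, and the share was -0.96. Other members of this shape had smaller differences. Zm.1993.1.S1_at averaged 545 in B73, 1025 in Mo17, 1058 in B73xMo17 and 673 in Mo17xB73, for a share of -0.80. Zm.1417.2.A1_at averaged 596, 1040.0, 1074 and 752 in the same order, for a share of -0.73. ZmAffx.1072.1.A1_at averaged 245, 389, 409.7 and 285, for a share of -0.87, and its hybrid arrays were separate. Zm.9186.1.A1_at averaged 324, 124, 159.5 and 266, for a share of -0.53, and each of its hybrids was nearer the father. Among the brightest members, Zm.852.1.A1_at averaged 1082, 2046, 1773 and 1452, for a share of -0.33, and its hybrid arrays overlapped.

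**Figure D2:**
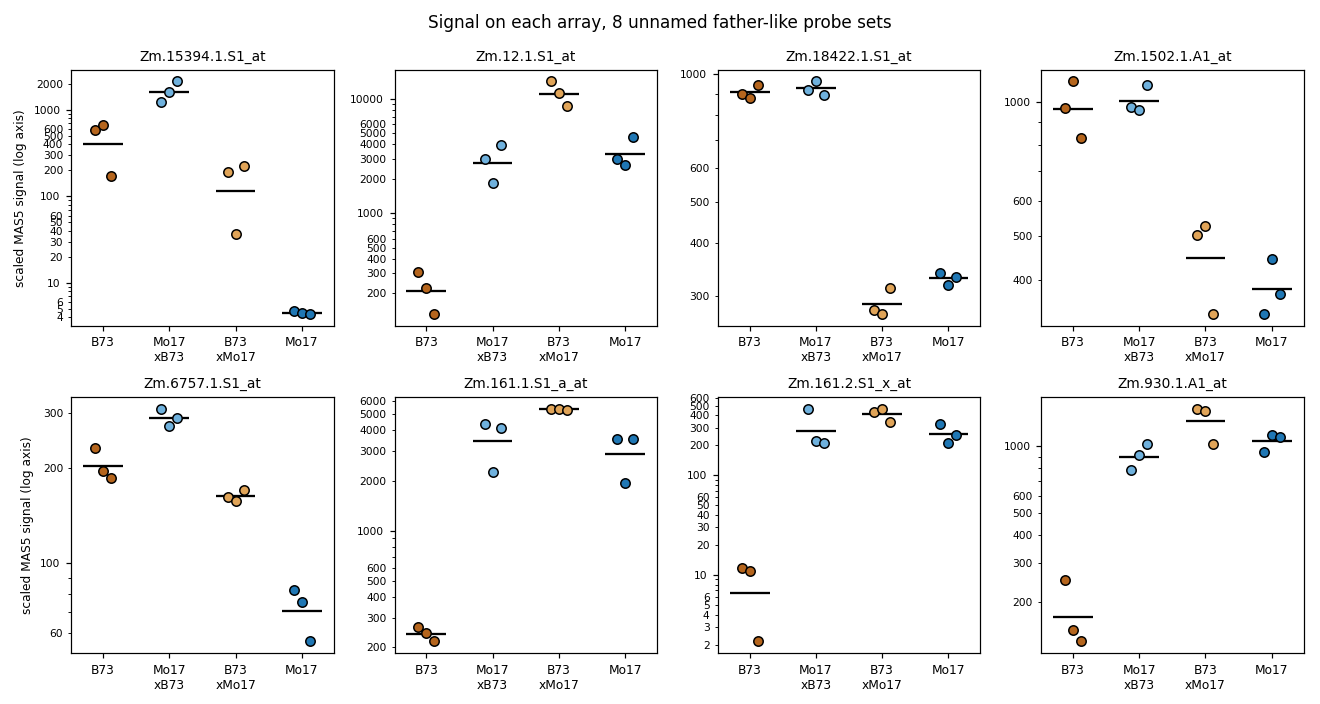
Scaled MAS5 signal on each of the 12 arrays (points, log axis) for 8 members without a gene name, with bars at the geometric mean of the 3 arrays of a genotype. Zm.18422.1.S1_at and Zm.1502.1.A1_at split into a pair with B73 as father and a pair with Mo17 as father, while in Zm.15394.1.S1_at and Zm.12.1.S1_at 1 hybrid stands above both inbreds.

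Of the members 8 paired with a gene in the annotation, for 7 genes, and the other 43 carried none; among eligible probe sets 243 had a gene. Of the 8, 7 were higher in B73. The beta-tubulin gene tub5/tub8, whose product builds the microtubules of the spindle and the cell cortex, was a member by both of its probe sets. Zm.4718.1.S1_at read 2876, 4711 and 4027 in B73 and 2663, 4193 and 3894 in Mo17xB73, against 1989.6, 2734 and 2675 in Mo17 and 1981, 2524 and 2639 in B73xMo17. On each date the genotypes with B73 as father were above those with Mo17 as father, and over the dates the only overlap between these 2 pairs was of Mo17 (up to 2734) with Mo17xB73 (from 2663). The share was -0.85, nearly the same on every date (-0.77, -0.84 and -0.93). The hybrid difference was -0.57 ± 0.20 (SE) log2 in the fit without dates, and the SE was 0.07 with crossing date as a block. Zm.4718.2.S1_a_at averaged 2369 in B73, 1372 in Mo17, 1598 in B73xMo17 and 2101 in Mo17xB73, for a share of -0.50.

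pcna1 encodes the sliding clamp that holds DNA polymerase on its template. Its probe set Zm.165.1.S1_at read 2934, 4259.6 and 3292 in B73, 2204, 2434 and 2211 in Mo17, 2110.1, 2655 and 2208 in B73xMo17, and 2657, 3520.1 and 2893 in Mo17xB73. B73xMo17 was at the level of its father (1.01-fold) and Mo17xB73 at 0.87 of its own, for a share of -0.59; the lowest Mo17xB73 array just exceeded the highest of B73xMo17. MCM6, a subunit of the helicase that opens DNA at replication origins, averaged 419 in B73, 232 in Mo17, 220.1 in B73xMo17 and 315 in Mo17xB73 on Zm.3169.4.S1_a_at, for a share of -0.51. Its other probe sets had no inbred difference large enough for the rule. They averaged 518, 453, 293 and 442 on Zm.3169.5.S1_a_at, and 395, 383, 267 and 421 on Zm.3169.5.S1_x_at, in the order B73, Mo17, B73xMo17 and Mo17xB73. In both, B73xMo17 was the lowest genotype and differed from the reciprocal hybrid by -0.59 ± 0.20 and -0.65 ± 0.20 log2 (adjusted p 0.038 and 0.0287, limma).

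The wider set of cell cycle, replication, histone and tubulin genes shows what these members shared with genes of their kind. The list held 18 probe sets of 11 genes, and tub5/tub8 was outside it. B73xMo17 was lower than Mo17xB73 in 14 of the 18, where 43.9% of all probe sets were lower. The median log2 difference was -0.45, against 0.06 over all probe sets. Of the 16 tested, 8 passed as lower in B73xMo17 and 0 as higher in limma (adjusted p under 0.05). At that adjusted threshold 12.9% of all probe sets tested passed as lower and 16.5% as higher. At an unadjusted p under 0.05 in limma the counts were 11 and 1. No share over all probe sets is given at that p, so nothing is read from these counts. By their means Mo17 was the higher inbred in 6 of the 8 and B73 in 2. The 2 were MCM6 probe sets whose inbreds were not called as different in limma. They differed by 0.19 ± 0.20 and 0.05 ± 0.20 log2 (adjusted p 0.434 and 0.869). The cdc2 probe set among the 6 was not called either (-0.15 ± 0.08, adjusted p 0.148). Every called inbred difference among the 8 had Mo17 as the higher inbred. In cyc2, cyc3 and pcna2 the hybrid with Mo17 as mother was the higher one, as the mother's level would place it. cyc2, a cyclin, differed by -1.07 ± 0.24 (adjusted p 0.00608), cyc3 by -0.94 ± 0.22 (adjusted p 0.00709) and pcna2, a second clamp gene, by -0.53 ± 0.11 (adjusted p 0.0042). The 2 list members that were father-like, pcna1 and MCM6, had the same hybrid direction with B73 as the higher inbred. Their own hybrid differences were -0.38 ± 0.14 and -0.52 ± 0.23 in the fit without dates, and had one sign on every date. With crossing date as a block the SEs were 0.07 and 0.15. Neither was called in the fit without dates, and both were called with crossing date as a block, as were both tub5/tub8 probe sets. The rule chose all of these probe sets by this difference, so nothing is read from their calls. The father-like probe sets of pcna1 and MCM6 are also among the 14 lower in B73xMo17 and the 11 counted next. With the block 11 of the 16 passed as lower (19.4% of all tested) and 2 as higher (24%), the latter being tua1, an alpha-tubulin, and his2b5, a histone gene, at 0.19 ± 0.05 and 0.54 ± 0.19. The list was drawn up with results of these data known and carries no independent weight.

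**Figure D3:**
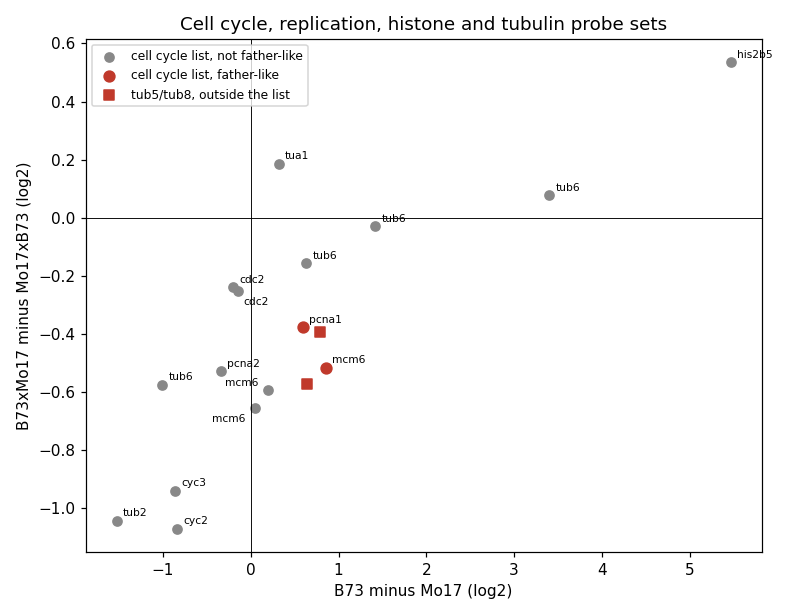
Log2 difference of the reciprocal hybrids (vertical) against that of the inbreds (horizontal) for the 16 tested probe sets of the cell cycle list, with father-like ones in red and the tub5/tub8 probe sets as squares. Most points lie below 0 on the vertical axis on either side of 0 on the horizontal axis, and the red ones, like several grey ones, have B73 as the higher inbred.

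The remaining named members had other roles. GST3, with the synonyms gst3a, gst3b and gst4, is a glutathione S-transferase gene that acts in detoxification. On Zm.244.1.A1_at it read 275, 205 and 214 in B73 and 105, 123 and 113 in Mo17. B73xMo17 read 156, 147 and 109.7, and Mo17xB73 read 170.1, 191 and 202. By their means the hybrids lay between the inbreds for GST3, and their arrays did not overlap each other, and the share was -0.44. sqs1, named for squalene synthase of the sterol pathway, averaged 287 in B73, 135 in Mo17, 171 in B73xMo17 and 220.1 in Mo17xB73 on Zm.13795.1.A1_at, for a share of -0.32. A second probe set of the same cluster, Zm.13795.2.S1_at, ran the other way, with B73xMo17 above Mo17xB73 (573 against 398), a log2 difference of 0.53 ± 0.09 (adjusted p 0.00153, limma). LOC541901 was the brightest member and averaged 7172 in B73, 4111 in Mo17, 4895 in B73xMo17 and 6209.6 in Mo17xB73 on Zm.16794.1.A1_at, for a share of -0.43. LOC542286, on Zm.10219.2.S1_a_at, was the only named member higher in Mo17. It read 605, 592 and 576 in B73, 941, 893 and 939 in Mo17, 774, 725 and 877 in B73xMo17, and 648, 623 and 674 in Mo17xB73. The 4 genotypes did not overlap, and the share of -0.43 stayed between -0.56 and -0.34 over the dates.

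**Figure D4:**
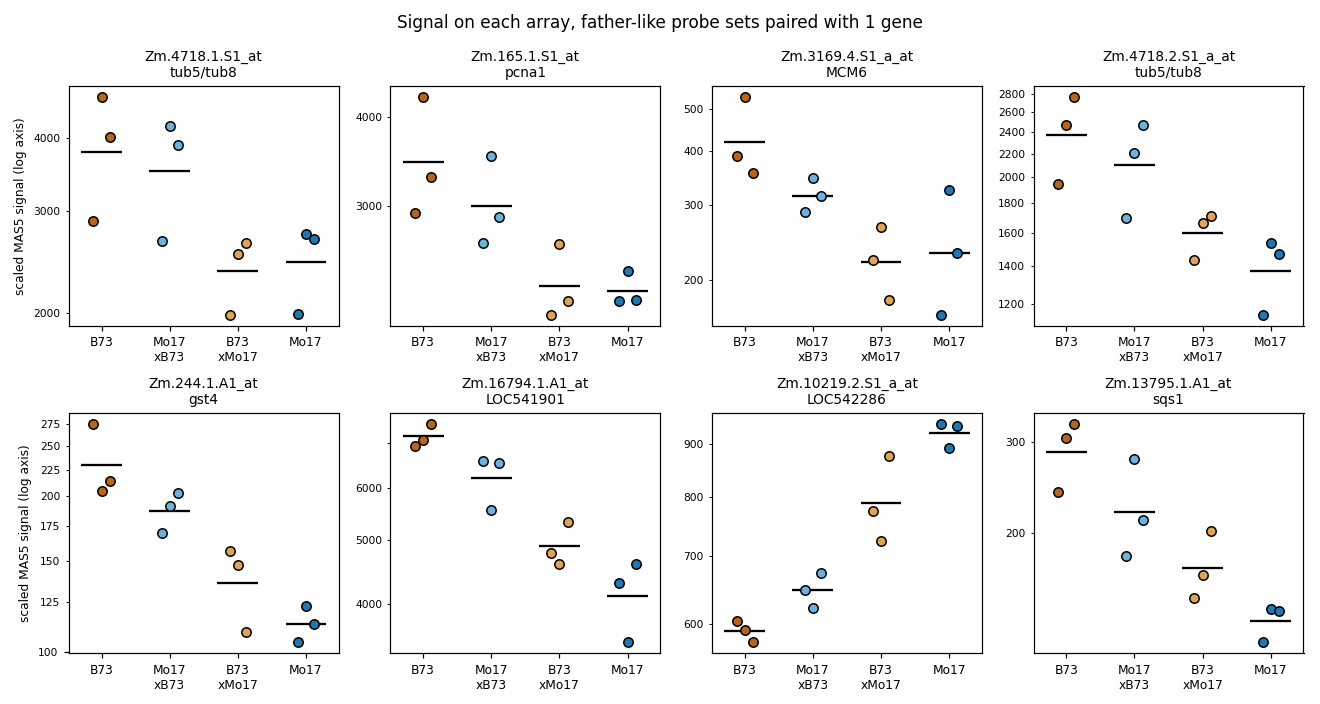
Scaled MAS5 signal on each array (points, log axis) for the 8 members paired with 1 gene, with bars at the geometric mean of 3 arrays. In 7 panels the order runs from B73 through Mo17xB73 towards B73xMo17 and Mo17, and in LOC542286 it runs the other way.

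The lists other than the cell cycle one were too small to be read for members. They held 26 eligible probe sets and 0 members, where the rates of all eligible probe sets (1.94% members, 7.69% with a share below 0) would give 0.505 members and 2.00 negative shares. The 9 eligible zein probe sets had a median share of 0.78 and no share below 0. The eligible probe sets of starch synthesis (3), basal transfer cells (3), aleurone (3), zein regulators (2), heat shock (3), embryo (1), green tissue (1) and ribosome (1) also held no share below 0. None of 13 genes listed as paternally expressed in maize endosperm was found by name in the annotation, so the class to which the members might be compared most directly was not analysed here. Of the maternally expressed genes listed, fie1 and mez1, both Polycomb group genes, had shares of 0.99 and 0.96, but their inbreds differed too little to be eligible. fie2, the third one found, had 185 in B73, 227 in Mo17, 191 in B73xMo17 and 164 in Mo17xB73, for a share of -0.66 that rests on an inbred difference too small for the rule.

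The level of both hybrids together is given next as a description, since the rule bears on it. The mean of both hybrids passed as above the mean of both inbreds for 9 of 51 members and as below it for 0 (limma, Benjamini-Hochberg over all probe sets tested). At an unadjusted p under 0.05 the counts were 11 and 0. Of all probe sets tested 3.64% passed as higher and 0.91% as lower, and of the eligible 13.7% and 0.879%. The linear share grows with the level of the hybrids, so the rule itself favours members with high hybrids. The count of 9 (17.6%) is near the share of the eligible and is not evidence about father-like transcripts. When the 44 members chosen on log2 differences were taken instead, a choice made after the values were seen, 3 passed as higher (6.82%) and 0 as lower, below the share of the eligible. These 3 were Zm.15394.1.S1_at, Zm.12.1.S1_at and Zm.6757.1.S1_at. Over the 51 the median difference was 0.05, against 0.02 over the eligible and -0.06 over all tested, all in log2 units.

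Zm.12.1.S1_at had the largest difference, 2.74 ± 0.23 (SE), with all 3 dates showing B73xMo17 above both inbreds. Zm.15394.1.S1_at differed by 2.48 ± 0.43, a value that depends on the floor given to Mo17. Zm.6757.1.S1_at read 232, 196 and 187 in B73, 82.5, 75.3 and 56.5 in Mo17, 162, 158 and 171 in B73xMo17, and 309, 272 and 289 in Mo17xB73. Every Mo17xB73 array was above every other array, and every B73xMo17 array was below B73 and above Mo17. The hybrid mean was higher by 0.86 ± 0.11, Mo17xB73 was 1.42-fold above its father, and the share was -0.95 and within -0.99 to -0.90 over the dates.

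Of the members 3 carry the name stem Zm.161 and had B73 as the low inbred; they may share a target and are not counted as independent. On Zm.161.1.S1_a_at B73 read 263, 243 and 217, Mo17 read 3551, 1935 and 3563, B73xMo17 read 5417, 5374 and 5309, and Mo17xB73 read 4366, 2257 and 4169. All hybrid arrays were above all of B73, every array of B73xMo17 was above every other array, and Mo17xB73 overlapped Mo17. The hybrid mean was 2.37 ± 0.18 log2 above the inbred mean. On Zm.161.2.S1_x_at B73 averaged 6.53, below the floor, against 259 in Mo17, 410.4 in B73xMo17 and 278 in Mo17xB73. The shares of the 3 were -0.72, -0.53 and -0.40, and the last, Zm.161.3.S1_x_at, was negative on date 2 only (0.11, -3.43 and 0.23). On that date Mo17 and Mo17xB73 were both low, at 696 and 1385, where they read 2123 and 3304 on date 1.

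Zm.930.1.A1_at, Zm.14798.1.S1_x_at and Zm.1293.1.S1_at completed the 9. Zm.930.1.A1_at averaged 171 in B73, 1055 in Mo17, 1299 in B73xMo17 and 900.1 in Mo17xB73, a hybrid mean higher by 1.35 ± 0.15. Zm.14798.1.S1_x_at averaged 109, 535, 708 and 553, higher by 1.38 ± 0.23. Zm.1293.1.S1_at averaged 414, 226, 373 and 446, higher by 0.42 ± 0.08, and it was not called on the deposited values or without the dim arrays. In all 9 the hybrid fathered by the higher inbred was above that father, by 1.08-fold to 4.0-fold. A log scale places hybrids that sit on the arithmetic mean of their parents above the log mean, and the more so the farther apart the inbreds are.

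**Figure D5:**
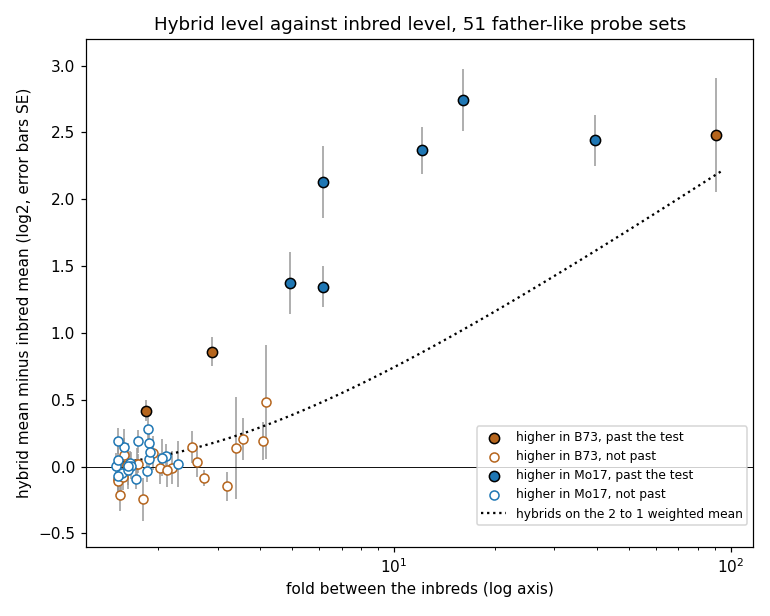
Log2 difference of the hybrid mean from the inbred mean (vertical, bars are SE) against the fold between the inbreds (log axis) for the 51 members, with filled points past the limma test. The dotted line is where hybrids on the 2 to 1 weighted mean of the parents would fall; the 9 filled points lie above it, and the folds of the 2 points farthest right are set by inbred signal below the floor.

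Taken per parent, 33 members had both hybrids within the range of the inbreds. In 15 the hybrid fathered by the higher inbred exceeded that inbred, by over 1.25-fold in 7, and in 4 the hybrid fathered by the lower inbred fell below it, by over 1.25-fold in 0. The hybrid with the higher inbred as father had a median of 0.87 of that father's level (0.66 to 4.0), and the hybrid with the lower inbred as father had a median of 1.23 of its own father's level. The lowest of the first kind was Zm.13734.1.S1_at, with 410.2 in B73, 128 in Mo17, 157 in B73xMo17 and 272 in Mo17xB73. Its summed hybrids were 0.798 of the summed inbreds, the smallest such ratio among the members; the member median was 0.989 and the eligible median 0.944.

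For reference, the contrasts that the rule used were called as follows in limma, each with its share among all probe sets tested. The reciprocal hybrids differed in 18 of 51 members (29.4% of all tested), 9 higher in B73xMo17 (16.5%) and 9 lower (12.9%), and the inbreds in all 51 (50.9%). B73xMo17 differed from its mother in 37 (9.34%) and from its father in 9 (46.9%). Mo17xB73 differed from its mother in 26 (11.5%) and from its father in 12 (39.9%). With crossing date as a block, 16 members in place of 9 were lower in B73xMo17 than in Mo17xB73 (19.4% of all tested). B73xMo17 was above its father in 16 (24.4%) in place of 8 (20%) and below it in 4 (32.7%) in place of 1 (26.9%). Mo17xB73 was then below its father in 8 (32.1%) in place of 1 (24.9%) and below its mother in 16 (13.8%) in place of 10 (5.51%).

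Crossing date, which the rule did not use, moved 12 of 51 members (23.5%) in an F-test of limma with genotype in the model, near the 16.9% of all tested and the 18.8% of the eligible. The lowest adjusted p values were those of tub5/tub8, of which both probe sets were lowest on date 1, by -0.34 and -0.25 log2 from the mean over dates (adjusted p 0.000293 and 0.00298). pcna1 (adjusted p 0.00691) and MCM6 (adjusted p 0.0336) were highest on date 2, at 0.21 and 0.31. Zm.10507.1.S1_at went the other way and was highest on date 1 (0.35, adjusted p 0.00619). No single date was high for the 12 as a group: date 1 was highest for 3, date 2 for 4 and date 3 for 5. Date 1 was lowest for 7, date 2 for 3 and date 3 for 2. Both tub5/tub8 probe sets and Zm.10507.1.S1_at passed in all 17 alternative settings, pcna1 in 16 and MCM6 in 7. Without replicate 1 of B73 the count fell to 6, and without replicate 2 of Mo17, replicate 3 of B73xMo17 or replicate 2 of Mo17xB73 it was 7.

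Other probe sets of the same cluster repeated the pattern in some cases and ran against it in others. The 51 members came from 48 clusters, judged by the shared stem of the probe set name, and 2 clusters, Zm.161 and Zm.4718, had more than 1 member. These clusters held 30 other probe sets, of which 18 were as bright as the rule asks. Of the 18, 5 had a share of -0.3 or less, 4 of them in cluster Zm.3169 beside the MCM6 member and the other Zm.10219.3.A1_a_at beside LOC542286 (-0.60). All 5 had inbreds too close for the rule, and the hybrid difference of Zm.10219.3.A1_a_at was not called (0.12 ± 0.10 log2, adjusted p 0.365, limma). The inbreds of Zm.3169.5.S1_a_at and Zm.3169.5.S1_x_at were not called as different (adjusted p 0.434 and 0.869, limma). Their shares of -2.29 and -12.5 therefore do not show a repeat of the pattern. The brightest probe sets of that cluster, Zm.3169.3.S1_at and Zm.3169.3.S1_x_at, were not eligible either and had shares of 0.35 and 0.22. In the 6 neighbours that were eligible no share was below 0. Among these 6, Zm.10219.1.S1_at, also beside LOC542286, averaged 726 in B73, 1152 in Mo17, 885 in B73xMo17 and 919.7 in Mo17xB73 (share 0.08). Of the 12 dimmer neighbours 6 had a share of -0.3 or less, among them Zm.161.2.S1_a_at (-0.67). Most of these 6 shares rest on signal near background. Every genotype mean was below the floor in Zm.1417.3.A1_a_at (3.88 to 9.17) and Zm.7016.1.S1_at (5.05 to 7.68). The means of ZmAffx.1072.1.S1_at (11.6 to 27.5) and ZmAffx.475.1.S1_at (20.9 to 33.7) lay near it. For such probe sets the share does not show a repeat of the pattern. In cluster Zm.14798 the father-like probe set was higher in Mo17, and its neighbour Zm.14798.1.S1_at read alike at a lower level, with 19.3 in B73, 146 in Mo17, 155 in B73xMo17 and 120.04 in Mo17xB73 (share -0.28). By contrast Zm.14798.2.A1_at read 2098 in B73, 22.7 in Mo17, 1605 in B73xMo17 and 918 in Mo17xB73, for a share of 0.33. In cluster Zm.7016 the father-like Zm.7016.1.A1_x_at averaged 369.8 in B73, 104 in Mo17, 155 in B73xMo17 and 328 in Mo17xB73 (share -0.65). The dimmer Zm.7016.1.A1_at had the same order, at 45.2, 3.35, 12.4 and 51.8 (share -0.94). Another neighbour, Zm.7016.1.A1_a_at, averaged 733, 833, 241 and 1117. Its inbreds differed by -0.19 ± 0.31 log2, and B73xMo17 was apart from Mo17xB73 by -2.21 ± 0.31 log2 (adjusted p 0.000343, limma). Zm.7016.2.A1_x_at ran against the pattern, at 121, 234, 100.3 and 212, for a share of 0.99. It was bright enough for the rule, but its inbred arrays overlapped. Its hybrid difference was -1.08 ± 0.27 log2 (adjusted p 0.0105, limma). A suffix marks probe sets that can bind other transcripts: 5 of 51 members ended in _x_at (9.80%), against 126 of 2627 eligible probe sets (4.80%), and 1 ended in _s_at (1.96%), against 40 (1.52%). The part of binding to other transcripts in these values was not tested.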

How the data were processed

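The intensity values are MAS5 signal on a linear scale, deposited by the authors with 1 value per probe set and array, per the labels; MAS5 is named in the submitters' processing notes, and neither its version nor a scaling target is known from those sources. RNA (8 µg in all) was labelled with biotin in 1 amplification cycle, per the labels' protocols. Of 17734 probe sets 113 were controls and left out, and 17621 were scaled to a median of 160 on each array. Geometric means of 3 arrays gave the shares.

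For tests, a floor was set at the 20th percentile of scaled signal over all arrays (14.9), log2 was taken, and the 10544 probe sets with a mean over 12 arrays above the pooled 40th percentile (72.2) were kept; all 51 members passed. limma 3.58.1 in R 4.3.3 fitted 4 genotype means with an intensity trend (8 residual degrees of freedom), two-sided, with Benjamini-Hochberg adjustment and a threshold of 0.05. The dates test added crossing date to genotype. The fits were tested on simulated data. Tables used Python 3.11.15, pandas 2.3.3, numpy 2.4.6 and matplotlib 3.10.9.

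The replicate number is a crossing date shared by all genotypes, per the labels. Over the 18 pairs of arrays with the same number, deviations from the genotype means correlated at 0.25 to 0.60, so the numbers pair the arrays.

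The members, gene lists and tests were chosen with earlier results of these data known. Named were the members with 1 gene, the 8 lowest shares, the 8 brightest, the 8 largest called hybrid differences, those beside the threshold, and genes listed as imprinted; the 9 with raised hybrids, cluster neighbours and list genes were taken up after their values were seen. Of the probe sets used, 1452 had 1 gene in the platform annotation, 1 had several and 16168 had none. Gene symbols came from that annotation and RefSeq synonyms. No sequences or positions are given.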

Additional observations from a re-analysis of the deposited data

How the results depend on the processing

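Several arrays and thresholds decide how many members there are. Against 51, the rule gave 82 at a share of -0.2 or less, 20 at -0.5 or less, 22 at an inbred ratio of 2 or more, 29 at a larger inbred mean of 400 or more, and 83 without replicates 1 and 2 of B73xMo17. Leaving out 1 array gave 46 to 62, and leaving out 1 crossing date 58 to 65. With each array left out in turn, 48 of the 51 kept a share below 0 and 25 stayed at -0.3 or less. The share of Zm.17224.1.S1_s_at turned to 0.0834 without replicates 1 and 2 of B73xMo17, and those of Zm.6406.1.A1_at and Zm.6173.1.A1_at to 0.108 and 0.0409 on the deposited values; the cause was not tested. On the deposited values 1 member was called higher and 22 lower in B73xMo17 than in Mo17xB73, in place of 9 and 9.

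With crossing date as a replicate block, 16 members were lower in B73xMo17 than in the reciprocal hybrid (9 without it). B73xMo17 was above its father in 16 and below it in 4 (8 and 1 without), and Mo17xB73 was below its mother in 16 and below its father in 8 (10 and 1 without). The block changed no other count of members by over 1.5 times. Raised hybrids were called for 9 members with each array left out and for 3 of those chosen on log2 shares, an alternative added after the values were seen. Calls of crossing date fell from 12 to 5 without the filter and to 7 without the intensity trend, and ranged from 6 to 11 with 1 array left out. Of the other alternatives, 82 counts over members moved by less than 1.5 times. The 3 arrays per genotype, the pooling and signal near background in low genotypes limit the precision, and p values measure only the spread between these pools.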

Other observations

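Beyond the members, 24 eligible probe sets had both hybrids nearer the father on the log scale without reaching a share of -0.3, so 62 of 2627 did so in all. The sum of both hybrids exceeded the sum of both inbreds by over 1.25-fold in 9 members, and fell below it to the same degree in 1, where 3.31% and 7.58% of the eligible did so. Members higher in Mo17 had a median hybrid-against-inbred difference of 0.07 log2 and those higher in B73 one of 0.02.

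Some lists of endosperm programmes that held no member had large median differences, B73xMo17 minus Mo17xB73. Basal transfer layer genes, which feed the growing endosperm, had a median log2 difference of -1.26 over 11 probe sets, and genes of the embryo-surrounding region one of -1.96 over 6. The basal transfer list summed to between 2248 and 8940 units in B73xMo17 and to between 8203 and 23540 units in Mo17xB73. Zein genes had a median difference of 1.87. These medians were not tested.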
